A study of Homo sapiens with 2 samples.

Results

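The DNA damage response and repair genes described here are 44 genes found by their symbols among the 19607 genes of the expression table. The list held 45 symbols, of which MRE11 and MRE11A are the new and the old name of the same gene, and genes of chromosome 3 were left out of it when it was drawn up. RNA was sequenced from CWR22rv1, a human prostate cancer cell line, as 1 library of control cells (genotype wild type) and 1 library of Akt1/2 DKO cells, in which CRISPR/Cas9 had been directed at Akt1 and Akt2. The knockout cells were isolated as single clones after puromycin selection, and the labels do not say which clone was sequenced, so a property of that clone and an effect of the knockout cannot be told apart. The comparison asks how loss of the Akt kinases affected the RNA of these cells, and with 1 library a group it has no replicate check and no p-value.

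A cell that meets broken or damaged DNA first signals it. ATM and related kinases mark the damage and switch on the checkpoint kinases CHEK1 and CHEK2. Double-strand breaks are then either joined end to end, with the Ku heterodimer and DNA-PK, or copied back from the sister chromatid by homologous recombination with the BRCA proteins, while the Fanconi anaemia proteins unhook crosslinks between the strands and excision and mismatch repair deal with lesions of a single strand. In prostate cancer these genes are known above all because tumours that have lost homologous recombination respond to inhibitors of PARP.

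The estimated reads per gene, rounded to whole reads, came to 9970825 for control and 10718654 for Akt1/2 DKO. AKT1 had 2645 reads in control and 591 in Akt1/2 DKO (log2 fold change -2.31), and AKT2 had 2362 and 667 (-1.97), so both targeted genes were lower in the library labelled as the knockout. Of 7 markers of prostate luminal epithelium all were read in both libraries, KLK3 with 184 and 29 reads. The 3 basal markers held 2 reads in control and 0 in Akt1/2 DKO, the endothelial markers at most 2 in a library, and of the leukocyte markers PTPRC and CD3E at most 1 and CD68 50 and 69. Of the fibroblast markers COL1A1 had 55 and 106 reads, COL3A1 74 and 9, LUM 5 and 35, and the other 3 at most 4 in a library. In bulk RNA, fewer cells of a type and less RNA per cell cannot be told apart.

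Most of the repair genes stayed near their control level. Folds set Akt1/2 DKO over control once edgeR's TMM factors had scaled both libraries, and a gene was counted as changed at 1.5-fold or more, the size the study used. Of the 44 genes, 2 were at least 1.5-fold higher in Akt1/2 DKO, FANCB and FANCL, both of the Fanconi anaemia core complex, and 0 were at least 1.5-fold lower. That is 4.55% of them, where 30.9% of the 13318 genes that reached 10 reads over both libraries were changed (15.9% higher and 15% lower). Every repair gene but RAD51B, with 99 reads in all, had at least 100 reads, and of the 10956 genes with that many reads 23.2% were changed (11.3% higher and 11.9% lower). Together the repair genes held 56583 reads in control and 63090 in Akt1/2 DKO, which is 5675 and 5707 CPM after scaling.

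**Figure D1:**
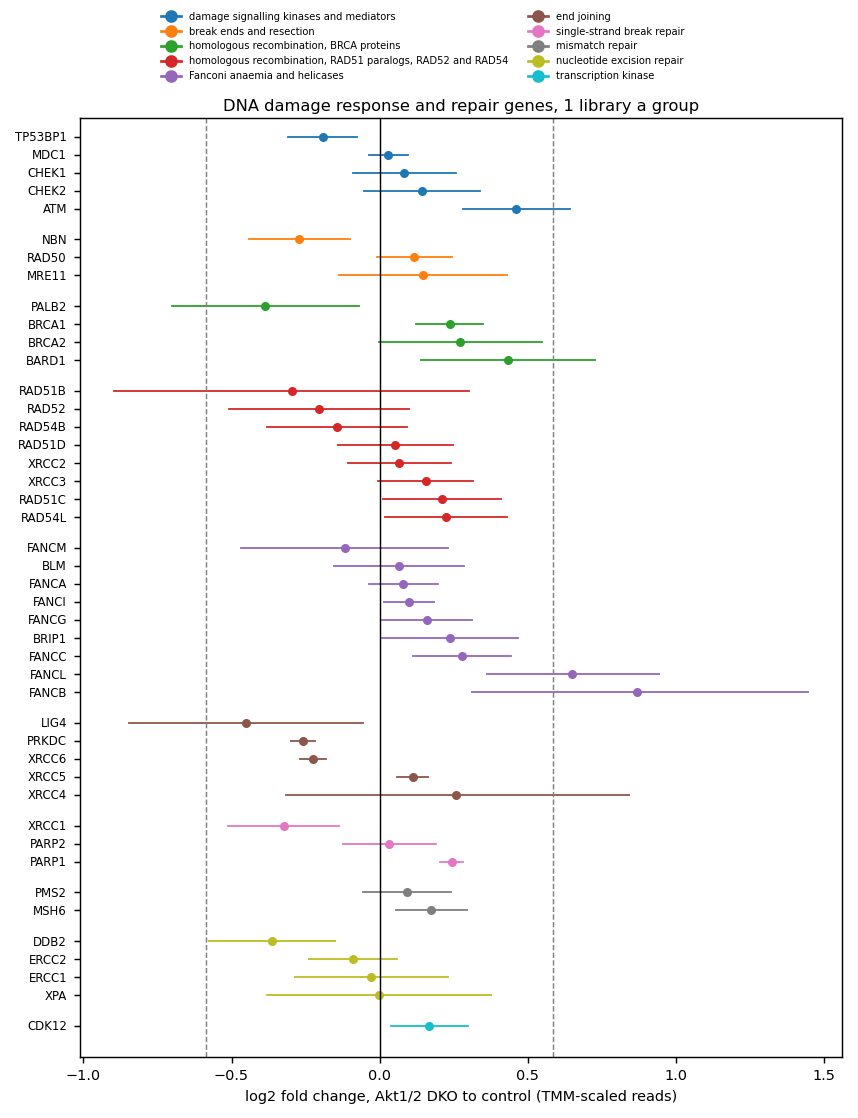
Log2 fold change of TMM-scaled reads (Akt1/2 DKO to control, x axis) for each of the 44 repair genes, coloured by role. Lines are exact 95% intervals for counting error, and dashed lines mark 1.5-fold. The points of FANCL and FANCB lie past the right dashed line, and no point lies past the left one.

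The median log2 fold change of the repair genes was 0.09, with quartiles at -0.12 and 0.21. Over all genes with at least 100 reads the median was -0.00031 and the quartiles were -0.28 and 0.26. A ratio of 1.25-fold or less in either direction was found for 36 of the 44 (81.8%), against 55.9% of all genes with at least 100 reads. The exact 95% interval, which covers counting error only, lay above no change for 15 repair genes, below it for 8 and across it for 21. Of the genes with at least 100 reads it left out no change for 62.3%, lying above it for 30.6% and below it for 31.7%.

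The changed genes come first, and the promoters of both are shown together with those of ATM, the member with the next highest value, and FANCC, a Fanconi gene below 1.5-fold. They are RefSeq sequences in GRCh38.p14, from 250 bases before the start of the gene to 50 bases after it, read in the direction of the gene. Capitals mark matches, on either strand, to the E2F sites TTTGGCGC, TTTCGCGC and TTTCCCGC, the CHR element TTTGAA, the CCAAT box or the FOXO core GTAAACA. FOXO factors are restrained by Akt, and the other motifs are known from promoters of cell cycle genes.
FANCB, chrX:14873020-14873319, minus strand: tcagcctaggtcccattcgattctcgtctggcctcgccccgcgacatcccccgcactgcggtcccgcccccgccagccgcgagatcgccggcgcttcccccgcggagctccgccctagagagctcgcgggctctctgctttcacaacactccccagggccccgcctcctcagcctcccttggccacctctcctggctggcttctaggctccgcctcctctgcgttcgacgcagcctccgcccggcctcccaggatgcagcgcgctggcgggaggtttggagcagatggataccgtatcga
FANCL, chr2:58241276-58241575, minus strand: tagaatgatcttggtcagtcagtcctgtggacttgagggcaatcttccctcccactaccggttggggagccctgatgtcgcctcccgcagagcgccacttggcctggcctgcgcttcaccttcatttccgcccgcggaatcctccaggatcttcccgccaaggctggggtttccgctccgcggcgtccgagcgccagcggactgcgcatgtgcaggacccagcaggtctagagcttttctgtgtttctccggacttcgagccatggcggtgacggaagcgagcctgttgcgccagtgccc
ATM, chr11:108222817-108223116, plus strand: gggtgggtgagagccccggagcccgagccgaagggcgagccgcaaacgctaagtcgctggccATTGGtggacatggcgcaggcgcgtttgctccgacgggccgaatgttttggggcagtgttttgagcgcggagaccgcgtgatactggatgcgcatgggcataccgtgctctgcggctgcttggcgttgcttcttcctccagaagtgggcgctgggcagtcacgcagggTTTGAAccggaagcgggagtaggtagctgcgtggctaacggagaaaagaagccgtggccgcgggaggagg
FANCC, chr9:95317660-95317959, minus strand: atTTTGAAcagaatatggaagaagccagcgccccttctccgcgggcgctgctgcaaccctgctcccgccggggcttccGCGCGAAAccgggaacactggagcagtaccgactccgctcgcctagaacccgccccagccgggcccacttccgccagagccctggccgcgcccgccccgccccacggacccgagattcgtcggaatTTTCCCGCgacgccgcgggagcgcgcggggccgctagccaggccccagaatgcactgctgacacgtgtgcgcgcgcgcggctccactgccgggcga

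No capitals stand in the FANCB and FANCL promoters, so none of the letters searched occur in these windows. The ATM promoter held a CHR element 20 bases before the start and a CCAAT box, read on the other strand. The FANCC promoter held 2 E2F sites and a CHR element. A promoter was listed for 39 of the 44 repair genes, and for 10358 of all genes tested. E2F sites were in 4 of the 39 (10.3%, against 4.52% of all promoters), CHR elements in 5 (12.8%, against 9.33%), CCAAT boxes in 20 (51.3%, against 36.7%) and the FOXO core in 0 (0%, against 2.31%). A match is a run of letters and was not tested as a site of binding.

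Both changed genes belonged to the Fanconi anaemia genes and helicases. With 2 of 9 changed (22.2%), this role was near the 23.2% of all genes with at least 100 reads. FANCB, an X-linked gene whose product holds together the catalytic part of the core complex, had 41 reads in control and 83 in Akt1/2 DKO. This was 1.83-fold higher, with an interval from 1.24 to 2.72. Per length it was the least abundant repair gene of the control library, at 1.37 FPKM, and it had 2.72 FPKM in Akt1/2 DKO, above BRCA2 and LIG4. FANCL, the ubiquitin ligase of the same complex, had 158 and 275 reads, 1.57-fold higher (interval 1.29 to 1.92), and 11.43 and 18.42 FPKM. The intervals of both left out no change but reached below 1.5-fold. FANCL overlaps VRK2, a gene on the opposite strand with 245 and 311 reads (log2 fold change 0.20, interval -0.05 to 0.44), and 19 of the 44 repair genes overlap another coding gene. Whether the counting used the strand is not given in the sources used here.

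The other subunits of the core complex among the 44 had lower values than these. FANCA had 1091 and 1279 reads (log2 fold change 0.08), FANCG 637 and 789 (0.16) and FANCC 518 and 696 (0.28). FANCM, the translocase that brings the complex to DNA, had 138 and 141 reads (-0.12). FANCI, a subunit of the pair of proteins that FANCL modifies, was the most abundant gene of this role, with 2097 and 2491 reads and 69.4 and 82.9 FPKM, and its log2 fold change was 0.10 (interval 0.02 to 0.18). The helicases BRIP1, with 281 and 367 reads, and BLM, with 321 and 372, had log2 fold changes of 0.24 and 0.06. Of the 9 genes of this role, 8 were on the higher side, and the interval lay above no change for 6. Among the 10956 genes with at least 100 reads, 5475 were on the higher side and 30.6% had such an interval. The count of 6 depends on the scaling, since the lower ends for FANCG (0.0074), BRIP1 (0.0083) and FANCI (0.015) were near no change on the log2 scale.

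None of the 5 genes of damage signalling was changed. ATM, the kinase that responds to double-strand breaks, had 419 reads in control and 639 in Akt1/2 DKO, a log2 fold change of 0.46 (interval 0.28 to 0.64), the third highest of the 44. The checkpoint kinases differed less, CHEK1 with 510 and 599 reads (0.08) and CHEK2 with 388 and 475 (0.14), and both intervals held no change. MDC1, the scaffold that binds the phosphorylated histone at breaks, was the most abundant gene of this role, at 63.25 and 67.66 FPKM, and with 3523 and 3984 reads its log2 fold change was 0.03 (interval -0.04 to 0.09). TP53BP1, which favours end joining over resection, was slightly lower, with 1224 and 1188 reads (-0.19, interval -0.31 to -0.08). CHEK2 has 4 pseudogenes of its name in the annotation, which can share its reads.

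MRE11, RAD50 and NBN form the complex that holds broken ends and starts resection. MRE11, which has 1 pseudogene of its name, had 189 and 232 reads (0.15). RAD50 had 912 and 1097 (0.12), and the intervals of both held no change. NBN went the other way, with 592 and 544 reads, a log2 fold change of -0.27 (interval -0.44 to -0.10). Per length, RAD50 stood at 0.896 times NBN in control and at 1.20 times in Akt1/2 DKO, as FPKM ratios.

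Among the BRCA proteins of homologous recombination, 3 of 4 were on the higher side by reads and 2 by FPKM, where BARD1 was at -0.14. BRCA1 had 1134 reads in control and 1481 in Akt1/2 DKO, a log2 fold change of 0.24 (interval 0.12 to 0.35), at 30.5 and 38.0 FPKM. BARD1, its partner in a ubiquitin ligase, had 163 and 244 reads (0.43, interval 0.14 to 0.73). BRCA2, which loads the recombinase onto single-stranded DNA, had 192 and 257 reads (0.27, interval -0.0035 to 0.55) and the lowest level of this role, 1.70 and 2.04 FPKM. PALB2, the bridge between BRCA1 and BRCA2, stood apart from these, with 185 and 157 reads and a log2 fold change of -0.39 (interval -0.70 to -0.07).

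The relatives of the recombinase that help it to form filaments differed little. RAD51C had 371 and 476 reads (0.21), RAD51D 407 and 468 (0.05), XRCC2 515 and 598 (0.07) and XRCC3 579 and 715 (0.16). RAD51C was the most abundant of them, at 41.4 and 48.9 FPKM. RAD51B was read least of all the repair genes, 52 and 47 times, and the interval around its value of -0.29 was wide, from -0.90 to 0.30. RAD54L, a motor protein that remodels recombination intermediates, had 343 and 444 reads (0.22), its paralog RAD54B 298 and 299 (-0.14), and RAD52, which anneals strands, 185 and 178 (-0.20).

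The genes of end joining included XRCC6, the most abundant of the list in FPKM in control though not in Akt1/2 DKO, and none was changed. XRCC6, one subunit of Ku, had 8986 and 8528 reads (-0.22, interval -0.27 to -0.18), and XRCC5, the other, 5467 and 6546 (0.11, interval 0.06 to 0.16). The Ku subunits therefore lay on opposite sides of the control, and the FPKM ratio of XRCC6 to XRCC5 was 2.46 in control and 1.93 in Akt1/2 DKO. XRCC6 has 5 pseudogenes of its name. PRKDC, the catalytic subunit of DNA-PK, had 10171 and 9419 reads (-0.26, interval -0.30 to -0.22). LIG4, the ligase that seals the ends, had the lowest value of all 44, -0.45 (interval -0.85 to -0.06), from 122 and 99 reads, and XRCC4, its partner, had 46 and 61 reads (0.26, interval -0.32 to 0.84). LIG4 was the gene of lowest FPKM of this role in Akt1/2 DKO, at 2.27, and XRCC4 in control, at 2.90.

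PARP1, which senses breaks of a single strand and has 2 pseudogenes that can share its reads, had 9151 reads in control and 12011 in Akt1/2 DKO. It was 1.18-fold higher (interval 1.15 to 1.22), at 295 and 351 FPKM, a level above that of 98.4% of the genes with a value above 0 in control. PARP2, a second enzyme of that kind, had 617 and 700 reads (log2 fold change 0.03), and XRCC1, the scaffold on which the gap is filled, 501 and 444 (-0.32, interval -0.51 to -0.14). In mismatch repair, MSH6 had 1005 and 1258 reads (0.18, interval 0.05 to 0.30) and PMS2, which has 11 pseudogenes that can share its reads, 684 and 809 (0.09).

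Of the 4 genes of nucleotide excision repair, DDB2, which recognizes ultraviolet lesions in chromatin, had 391 and 337 reads (-0.36, interval -0.58 to -0.15). The intervals of the other genes held no change. These were the helicase ERCC2 with 731 and 762 reads (-0.09), the nuclease subunit ERCC1 with 240 and 261 (-0.03) and the damage verifier XPA with 113 and 125 (-0.0032). ERCC1 and XPA were on the higher side with total count scaling (0.017 and 0.041), upper-quartile scaling (0.025 and 0.049) and FPKM (0.35 and 0.04). CDK12, a kinase that with cyclin K sustains transcription of long genes, many repair genes among them, had 895 and 1115 reads (0.17, interval 0.04 to 0.30). Of the 11 genes listed as its partners and elongation factors, 0 were changed at 1.5-fold, and CTR9 (1102 and 1001 reads, -0.29), CDK9 (341 and 455, 0.27) and SUPT5H (1558 and 2003, 0.21) had the highest absolute values among those whose interval left out no change. Across the 44 repair genes the log2 fold change had a Spearman rho of 0.28 with the length of the gene on the genome, and across all genes with at least 100 reads the rho was -0.06. These values describe genes read from the same 2 libraries.

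**Figure D2:**
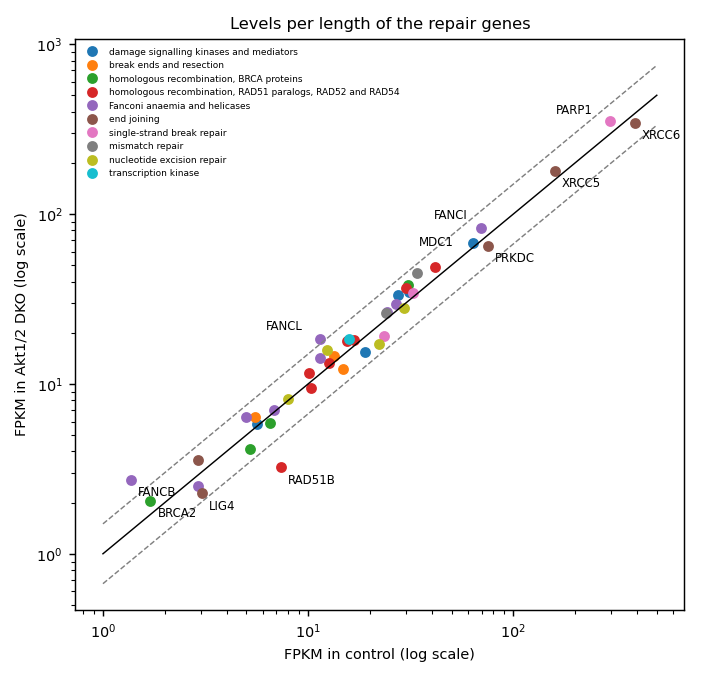
FPKM, the authors' level per transcript length, in control (x axis) and in Akt1/2 DKO (y axis) for the 44 repair genes, both on log scales, 1 point a gene. The solid line marks equal levels and the dashed lines 1.5-fold; FANCB and FANCL lie above the upper line and RAD51B below the lower one.

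The levels per length ran from 1.37 FPKM for FANCB to 390 for XRCC6 in control, and from 2.04 for BRCA2 to 351 for PARP1 in Akt1/2 DKO. For 5 of the 44 genes the log2 ratio of FPKM left the log2 fold change of reads by more than in the central 95% of genes with at least 100 reads, where the difference ran from -0.35 to 0.37. RAD51B had an FPKM of 7.35 in control and 3.23 in Akt1/2 DKO, a log2 ratio of -1.19, so it counted as lower by FPKM and not by reads. ATM had 5.65 and 5.84 FPKM (0.05, against 0.46 for reads). BARD1 had 6.49 and 5.90 (-0.14, against 0.43), which turned its direction. RAD52 had 10.13 and 11.65 (0.20, against -0.20) and ERCC1 12.3 and 15.7 (0.35, against -0.03), which turned theirs as well. XPA, at -0.0032 for reads, was at 0.04 for FPKM.

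FPKM divides by the length of the transcripts that were assigned reads. The length implied by the reads, the FPKM and the library total was 709.6 bases in control and 1357.5 in Akt1/2 DKO for RAD51B, whose 8 coding transcripts in GENCODE 29 run from 249 to 2596 bases. For BARD1 it was 2519 and 3858 bases, and for ATM 7438 and 10208. It was shorter in Akt1/2 DKO for RAD52 (1831.6 and 1425.5 bases) and ERCC1 (1951 and 1547). For PRKDC, as a reference, it was 13554 and 13519 bases beside a longest transcript of 13509. The table has 1 value a gene, so which transcripts were read was not tested.

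**Figure D3:**
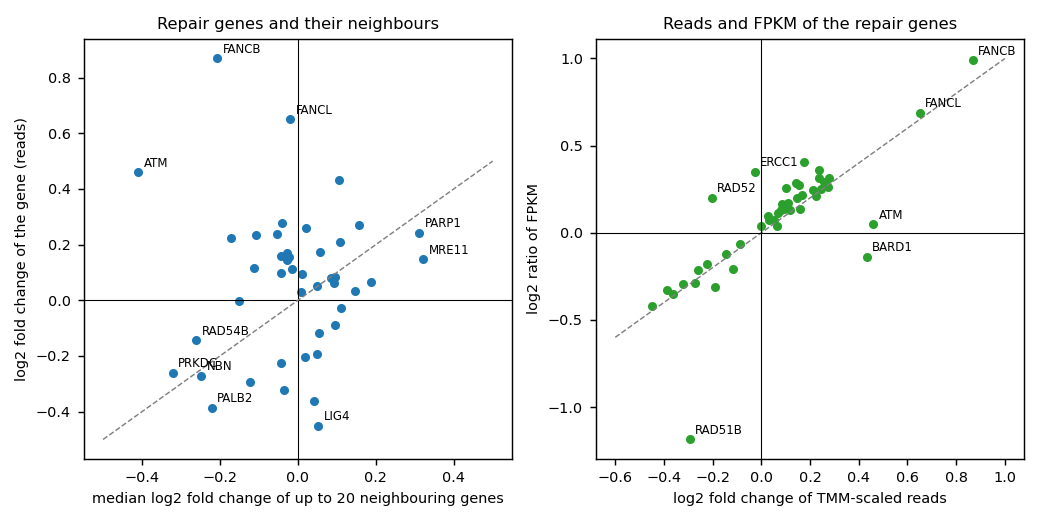
Left, log2 fold change of each of the 44 repair genes (y axis) against the median log2 fold change of up to 20 neighbouring genes tested, 10 on either side (x axis). Right, log2 ratio of FPKM (y axis) against log2 fold change of reads (x axis). Dashed lines mark equality; ATM, FANCB and FANCL lie above their neighbours on the left, and RAD51B, BARD1 and ATM lie below the line on the right.

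The repair genes lie on 17 chromosomes. The neighbours of a gene were the 10 genes tested on either side of it. Near a chromosome end there were fewer in all, 12 for PARP2, 15 for RAD52 and 18 for FANCA. Their median ran from -0.41, around ATM, to 0.32, around MRE11, and 35 of the 44 genes were within 0.3 of their neighbours on the log2 scale. That number goes with small values of the repair genes themselves, as 36 of the 44 were within 0.3 of no change. The share within 0.3 of neighbours was not computed over all genes. Neighbours and repair genes had a Pearson r of 0.05 and a Spearman rho of 0.07 over the 44 genes, a description only. ATM lay 0.87 above its neighbours. FANCB, on chromosome X from 14835961 to 14873069 in GENCODE 29 (GRCh38), lay 1.08 above its neighbours, and FANCL, on chromosome 2 from 58159243 to 58241372, 0.67. PRKDC, NBN and RAD54B share chromosome 8, whose genes had a median of -0.20, and their own values of -0.26, -0.27 and -0.14 stood beside neighbour medians of -0.32, -0.25 and -0.26. PARP1 (0.24) also stood beside neighbours that were higher (0.31).

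The rest of the repair machinery was read from lists of further genes by role, which hold no gene of the 44. Outside the list kept for chromosome 3 these came to 139 genes, of which 137 had at least 10 reads. Among them 10 were at least 1.5-fold higher and 5 lower in Akt1/2 DKO, with a median log2 fold change of 0.07. That is 10.9%, against 30.9% of all genes and 23.2% of those with at least 100 reads, a depth that most of the 137 had. In nucleotide excision repair, ERCC5, a nuclease, had 130 and 398 reads (1.47, against 0.76 by FPKM), while CCNH, the cyclin of the kinase in TFIIH, had 1018 and 374 (-1.59) and GTF2H4, a TFIIH subunit, 657 and 394 (-0.89). In homologous recombination, 4 of 32 were higher, among them SFR1 (43 and 112 reads, 1.23), MND1 (129 and 221, 0.63) and RECQL (560 and 934, 0.59). In the Fanconi list FANCF, another core subunit, had 277 and 534 reads (0.80), UBE2T, the conjugating enzyme that works with FANCL, 1183 and 1846 (0.49), and WDR48, on chromosome 3, 738 and 580 (-0.50). Of these 15 further Fanconi genes, 1 was changed (6.67%).

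In damage signalling, 1 of 25 genes was changed, ETAA1, which works at stalled replication forks, with 61 and 122 reads (0.85), and USP28 (210 and 157, -0.57) and H2AFX, the histone phosphorylated at breaks (5337 and 4229, -0.48), had the next values among genes with at least 100 reads. In base excision repair, 2 of 22 were changed, UNG (2045 and 3499, 0.63) and PARP3, on chromosome 3 (156 and 99, -0.80), and MPG had 404 and 338 reads (-0.41). Of 9 further end-joining genes 0 were changed, with NHEJ1 (191 and 288, 0.44, against 0.63 by FPKM, past 1.5-fold), POLM (242 and 351, 0.39) and MAD2L2 (884 and 780, -0.33) named by the same rule. In mismatch repair MLH3 (173 and 353, 0.88) was the changed gene of 6 by reads, though not by FPKM (0.39), and EXO1 had 532 and 770 reads (0.38). In translesion synthesis and direct reversal, 2 of 13 were changed, ALKBH2 (330 and 657, 0.84) and POLI (327 and 212, -0.77), and PRIMPOL had 166 and 132 reads (-0.48).

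**Figure D4:**
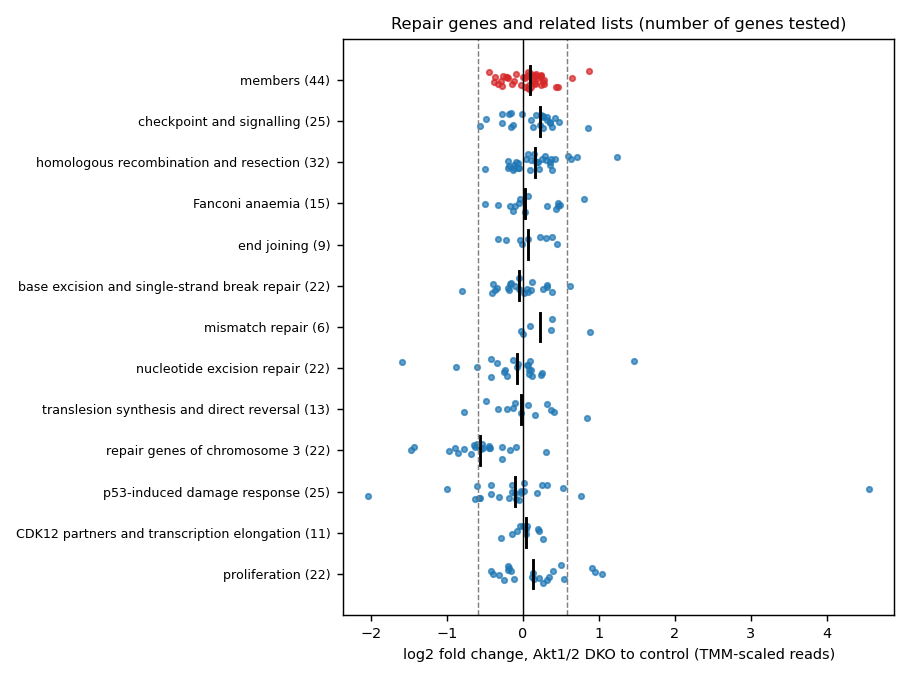
Log2 fold change of TMM-scaled reads (x axis) for the 44 repair genes (members, red) and the genes of the other lists (blue), 1 point a gene, with the number tested in parentheses. Black bars are medians and dashed lines mark 1.5-fold; the bar of the repair genes of chromosome 3 lies at -0.56, and those of the other lists between -0.10 and 0.23.

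Repair genes of chromosome 3, left out of the 44, had another range. Of 22 such genes, 10 were at least 1.5-fold lower, 0 were higher, and the median was -0.56, beside a median of -0.54 over the 754 genes tested on that chromosome. PARP14 (638 and 254 reads, -1.48), USP4 (1004 and 411, -1.44) and HLTF (2636 and 1493, -0.97) were the lowest with at least 100 reads. FANCD2, the partner of FANCI, picked from this list after its value was seen, had 1760 and 1282 reads (-0.61, interval -0.71 to -0.50).

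Of 25 genes that p53 induces after damage, 2 were at least 1.5-fold higher and 4 lower, and the median was -0.10. That is 24%, against 30.9% of all genes and 23.2% of those with at least 100 reads, a depth that all but TP53I3 had. TP53I3, 1 of the 2 higher genes, had 9 and 17 reads (0.77), and its interval of -0.48 to 2.12 held no change. Over the 25 genes the interval lay below no change for 9 and above it for 5, and 17 were on the lower side. Of the 10956 genes with at least 100 reads, the interval lay below no change for 31.7% and above it for 30.6%, and 5481 were on the lower side. PLK3 went from 156 to 4081 reads (4.56), whereas TP53INP1 went from 489 to 132 (-2.04) and ZMAT3, on chromosome 3, from 349 to 194 (-0.996). Of 22 genes of proliferation, with which many repair genes rise and fall, 3 were at least 1.5-fold higher and 0 lower, with a median of 0.14. That is 13.6%, where 15.9% of all genes were higher and 15% lower. All 22 had at least 100 reads, and of all genes with that many 11.3% were higher and 11.9% lower. The 3 higher genes were GMNN (484 and 1106 reads, 1.04), E2F2 (827 and 1764, 0.94) and CDT1 (857 and 1784, 0.91), which act at the licensing and start of replication. The interval lay above no change for 13 of the 22 and below it for 9, against 30.6% and 31.7% of all genes with at least 100 reads. The part of proliferation in the values of the repair genes was not tested.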

How the data were processed

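The submitters' processing notes name fastp 0.20.0, TopHat, Cufflinks, edgeR and the genome build GRCh38.p10. The counting tool and the use of strand are not given in the sources used here. For each gene the deposited table gives estimated counts, without normalization, and FPKM, which the authors scaled for transcript length and library size. The deposited files with the authors' own comparison (fold changes, p-values, ontology counts and a correlation) were not used.

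Estimated counts were rounded, and genes that reached 10 reads over both libraries were kept. With TMM factors (edgeR 4.0.16 in R 4.3.3) the Akt1/2 DKO library was 1.11 times the size of the control library. Intervals are exact (Clopper-Pearson, scipy 1.17.1, Python 3.11.15), at 95%, with a gene's total over both libraries held fixed. A library under 3 reads, the floor (0.301 CPM in control and 0.28 in Akt1/2 DKO), was set to 3. Reads are not independent molecules, so intervals cover counting error only. Each group is 1 library, so the groups cannot be separated from a batch, and no test across genes was made. Positions are from GENCODE release 29 (GRCh38), which held 19571 of the identifiers, and promoters from RefSeq (GRCh38.p14).

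The genes and lists were chosen with earlier results of these data known. Named were genes changed 1.5-fold, the extremes of each role in FPKM, the rest by role, and of each other list at most 3 genes with the highest absolute log2 fold change, at least 100 reads and an interval that left out no change. Repeats used upper-quartile scaling, scaling by total count, size factors from DESeq2 1.42.0, TMM without chromosome 3, FPKM, 3 read filters, a 2-fold threshold and 2 rules on the interval. The steps were tested on simulated data.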

Additional observations from a re-analysis of the deposited data

How the results depend on the processing

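The number of repair genes at least 1.5-fold higher was 2, and 0 were lower, under the 4 other scalings and the 3 read filters. With a 2-fold threshold the number higher was 0, and with an interval wholly past 1.5-fold it was also 0, since both ask for a larger difference. With the authors' FPKM 1 repair gene, RAD51B, was at least 1.5-fold lower; the cause was not tested. The median log2 fold change of the repair genes was 0.088. Over the other scalings, FPKM and the read filters it ran from 0.066 (TMM without chromosome 3) to 0.141 (upper-quartile scaling). The number of all genes past 1.5-fold was 4117, and it was 2546 with at least 100 reads, 2390 with a 2-fold threshold and 2201 with an interval wholly past 1.5-fold. Single values left their interval for 13 repair genes, 12 of them with FPKM and 4 with another scaling, and none of the values past 1.5-fold changed sign. Counts of intervals above or below no change were made with TMM over all genes only. They depend on the scaling where an interval ends near no change, as for FANCG, BRIP1, FANCI, RAD51C and RAD54L. Depth limits RAD51B, XRCC4 and FANCB, whose intervals are the widest. No paired analysis was possible because there is a single library of each genotype.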
